A study of Mus musculus with 11 samples.

Results

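Tbc1d4, P2ry14, AA467197 and 4930486L24Rik are 4 mouse genes whose transcripts were lower in T cells given wild-type FoxP3 than in mock-transduced cells, while cells given the A384T form of FoxP3 stayed close to mock. They were chosen by measured values of these same arrays: the mean of the wild-type arrays had to lie below the mock mean by over 1 log2 unit, and the A384T mean within 1 log2 unit of it. The 4 genes, of 18193 with a probe set of exactly 1 gene symbol, are measured by 5 probe sets, with 2 for Tbc1d4 and 1 for each of the others. All 5 probe sets met both limits. Of the Tbc1d4 probe sets, the one with the larger WT difference is called the first and the other one the second. Because these values chose the genes, differences among WT, A384T and mock are given below as a description, with no test, and the R397W arrays are the ones the choice did not use.

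The samples were CD4 T cells of BALB/cA mice, sorted as naive cells (CD25-, CD45RB high) from lymph nodes and spleen, activated with anti-CD3e (0.5 µg/ml) and IL-2 (10 ng/ml) beside irradiated spleen cells (20 Gy), and after 24 h exposed to MIGR1 retrovirus, a vector that also encodes green fluorescent protein (GFP). On day 7 the GFP-high cells were sorted, and each RNA was hybridised to 1 Affymetrix array. The groups were WT (mouse wild-type FoxP3 in MIGR1, 3 arrays), A384T (FoxP3 with this substitution in MIGR1, 3 arrays), R397W (FoxP3 with this substitution in MIGR1, 2 arrays) and mock (MIGR1 without FoxP3, 3 arrays). The vector drives the transduced FoxP3, and all 4 groups, mock included, were activated, infected and grown in IL-2. Whether the arrays within a group stem from different mice or cultures is not in the labels, so p-values rest on array-to-array spread alone, possibly technical.

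FoxP3 is the forkhead transcription factor of regulatory T cells; it binds DNA, raises some genes and represses others, and A384T and R397W are substitutions in its DNA-binding forkhead domain known from the human immune disease IPEX. The 4 genes belong to unrelated families. Tbc1d4, also called As160, is a GTPase-activating protein for Rab proteins that holds glucose transporter vesicles inside muscle and fat cells until the kinase AKT phosphorylates it. P2ry14 is a G protein-coupled receptor for UDP-glucose and other UDP-sugars. AA467197, also called Nmes1, encodes a small mitochondrial protein related to Ndufa4, a subunit of cytochrome c oxidase, and its locus also carries the miRNA gene Mir147, which was not measured here. 4930486L24Rik lies on chromosome 13 among genes of the cathepsin L and CTLA-2 families, between Ctsll3 and Ctla2b.

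The 250 bases upstream of the annotated start were read for short motifs of factors that act in T cells: the forkhead motif TGTTTAC, the AP-1 motif TGACTCA and the RUNX motif TGTGGTT, each on both strands. These motifs were picked with the sequences in view. Matches are in capitals, and the 3 genes with a match at the start farthest 5′ are shown because they are the ones where a reader can see such a word; the RefSeq windows are of build GRCm38.p6.
P2ry14, chr3:59153493-59153742, minus strand: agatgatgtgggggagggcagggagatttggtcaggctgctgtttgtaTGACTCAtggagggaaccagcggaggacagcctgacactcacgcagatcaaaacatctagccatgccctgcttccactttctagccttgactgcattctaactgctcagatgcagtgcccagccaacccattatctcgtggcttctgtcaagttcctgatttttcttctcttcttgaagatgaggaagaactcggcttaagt
AA467197, chr2:122637637-122637886, plus strand: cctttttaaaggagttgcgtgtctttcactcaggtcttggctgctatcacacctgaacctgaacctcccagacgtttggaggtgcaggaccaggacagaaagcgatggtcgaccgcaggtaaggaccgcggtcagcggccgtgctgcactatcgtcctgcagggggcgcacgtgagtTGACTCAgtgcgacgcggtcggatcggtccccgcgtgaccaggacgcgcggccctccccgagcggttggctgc
4930486L24Rik, chr13:60864417-60864666, minus strand: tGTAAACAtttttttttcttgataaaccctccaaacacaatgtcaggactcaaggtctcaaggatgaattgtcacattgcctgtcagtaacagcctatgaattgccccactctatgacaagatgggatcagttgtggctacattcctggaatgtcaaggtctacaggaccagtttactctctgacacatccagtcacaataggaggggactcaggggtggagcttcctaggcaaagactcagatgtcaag

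P2ry14 and AA467197 each held 1 AP-1 word, 202 and 73 bases before the start. 4930486L24Rik held 1 forkhead word on the other strand, 249 bases before its start. P2ry14 has 4 annotated windows, and the forkhead word also stood in the overlap of windows 2 and 3. Tbc1d4 held none of the 3 words in its window, which says only that these letters are not there. Over all 32851 RefSeq windows of 300 bases (250 before and 50 after a start), 5.20% held the AP-1 word, 3.65% the forkhead word and 5.27% the RUNX word. A word in a window is not a measured binding site.

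Each deposited value is set against mock: at every probe set the 3 mock arrays have a median of 0, and a value is the log2 difference from it. Changes between groups can therefore be read, whereas expression levels, and levels of one gene against another, cannot. In bulk RNA, fewer cells with a transcript and less of it per cell cannot be told apart. The number of arrays limits the precision. The one Foxp3 probe set was at -0.07, -0.004 and 0.11 in WT, 0.33, 0.10 and 0.30 in A384T, -0.19 and -0.39 in R397W, and 0, -0.34 and 0.26 in mock, with WT over mock at 0.04 ± 0.15 (limma, adjusted p = 0.976). The sources used here do not say if its probes match the transduced FoxP3, so it checks nothing about the labels. Over all 45037 probe sets tested with limma, WT over mock had 1198 called at an adjusted p under 0.05 (2.66%) and A384T over mock 976 (2.17%). R397W over mock had 0 called (0%), with 829 at an unadjusted p under 0.05. In a fit that also held the array number (the blocked fit) these counts were 3438, 3303 and 0, the last with 1684 at an unadjusted p under 0.05.

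Tbc1d4 had the largest WT difference from mock of the 4 genes. Its first probe set read -3.70, -3.63 and -2.34 in WT, -1.15, -0.46 and -0.46 in A384T, 0.34 and 0.035 in R397W, and 0.017, -0.58 and 0 in mock. Every WT array lay below every other array, the A384T arrays overlapped mock, and both R397W arrays lay above all mock arrays. The WT mean was 8.22-fold below mock (-3.04 ± 0.35, log2 difference ± SE from limma, n = 3 each), which ranked 8th lowest of all 45037 probe sets. The A384T mean was at -0.50 ± 0.35 from mock, 16.4% of the WT difference, and it varied with the arrays kept: it was -0.27 without A384T 1, -0.17 without all arrays numbered 1, and -0.70 without mock 2. The size of the WT difference varied with the array number, at -3.72, -3.05 and -2.34 between WT and mock arrays numbered 1, 2 and 3.

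The second Tbc1d4 probe set was also low in every WT array, with a narrower spread. It read -2.62, -2.55 and -2.39 in WT, -1.45, -0.93 and -0.15 in A384T, -0.61 and -0.27 in R397W, and -0.71, 0.36 and 0 in mock. The WT arrays stood apart from all others, while the A384T and R397W arrays both overlapped mock. WT was 5.29-fold below mock (-2.40 ± 0.33), and A384T was at -0.73 ± 0.33, 30.3% of the WT difference, with -0.43 without A384T 1 and -1.08 without A384T 3. The A384T arrays were the least alike here, with an SD of 0.66 over the 3 arrays, against 0.12 in WT and 0.54 in mock. Across the 11 arrays the 2 Tbc1d4 probe sets had a Pearson r of 0.888, but their R397W means lay on opposite sides of mock, at 0.38 ± 0.39 for the first and -0.33 ± 0.36 for the second.

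P2ry14 was low with WT FoxP3 and, in A384T cells, above mock. It read -1.05, -1.64 and -1.13 in WT, 0.45, 0.38 and 0.31 in A384T, -0.16 and 0.017 in R397W, and 0.009, -0.12 and 0 in mock. All 3 A384T arrays lay above all mock and R397W arrays, and all WT arrays below everything else. WT was 2.36-fold below mock (-1.24 ± 0.15) and A384T at 0.42 ± 0.15 from mock, so that the 2 forms of FoxP3 stood on opposite sides of it. The A384T replicates were close, with an SD of 0.07 (n = 3), against 0.32 in WT and 0.07 in mock.

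AA467197 had the highest A384T values of the 4 genes. It read -0.75, -1.73 and -0.82 in WT, 1.02, 1.30 and 0.59 in A384T, 0.72 and 0.35 in R397W, and 0.54, -0.17 and 0 in mock. The A384T arrays lay above the mock arrays, the lowest of them by a narrow margin over mock 1, and the R397W arrays overlapped both groups. WT was 2.33-fold below mock (-1.22 ± 0.29) and A384T 1.80-fold above it (0.85 ± 0.29), which made this probe set the one nearest to the upper A384T limit of the choice. The WT array numbered 2 was the lowest, and the SD over the 3 WT arrays was 0.55, against 0.37 in mock.

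4930486L24Rik had tight WT and A384T values. It read -1.80, -1.61 and -1.56 in WT, -0.58, -0.45 and -0.35 in A384T, -0.49 and -0.20 in R397W, and 0, 0.26 and -0.49 in mock. The WT arrays lay below all others, and the A384T and R397W arrays both overlapped mock through the mock array numbered 3. WT was 2.99-fold below mock (-1.58 ± 0.18) and A384T at -0.39 ± 0.18, which is 24.5% of the WT difference; it was -0.59 without mock 3 and -0.22 without mock 2. The A384T mean was thus below mock at this gene and both Tbc1d4 probe sets, and above mock at P2ry14 and AA467197.

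**Figure D1:**
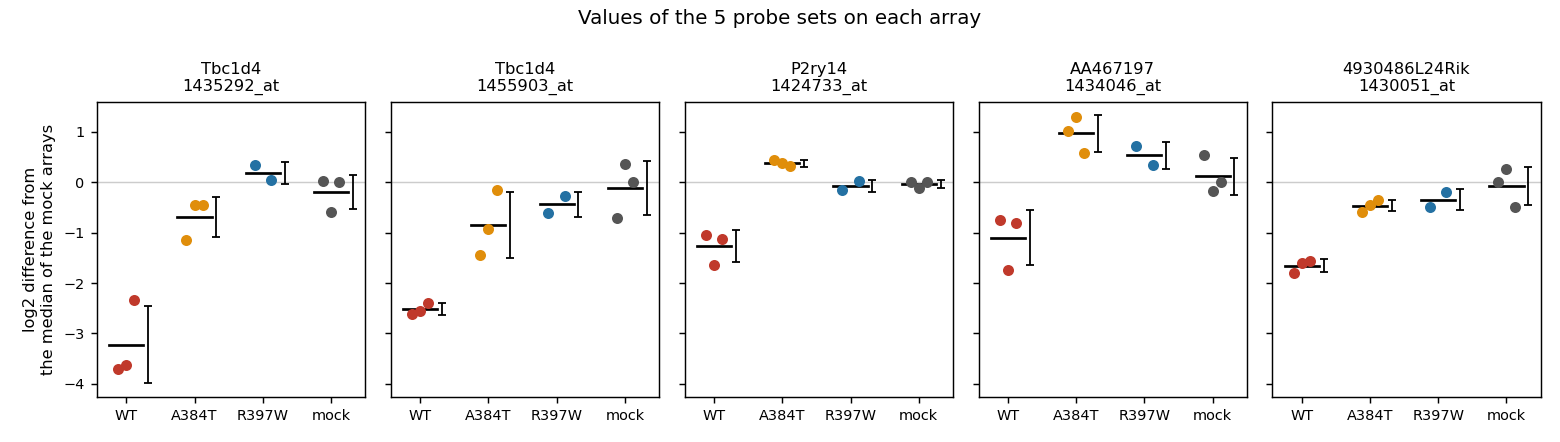
Values of the 5 probe sets on each of the 11 arrays, as log2 differences from the median of the mock arrays, with WT, A384T, R397W and mock from left to right; horizontal lines are group means and bars to their right are ± 1 SD (n = 3, 3, 2 and 3). The WT arrays sit below all others in every panel, down to -3.70 at Tbc1d4, where the choice of genes asked for a low WT mean. The A384T arrays sit above mock at P2ry14 and AA467197. Over all 45037 probe sets, WT and mock arrays did not overlap at 15.1%, and A384T and mock arrays at 14.3%, in either direction.

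The difference between the mutant and the wild-type form followed from the choice and is given for its size alone. A384T was above WT by 2.54 ± 0.35 and 1.67 ± 0.33 at Tbc1d4, 2.07 ± 0.29 at AA467197, 1.65 ± 0.15 at P2ry14 and 1.19 ± 0.18 at 4930486L24Rik. These ranked 4th, 17th, 7th, 19th and 35th highest of the 45037 probe sets, of which 46 were called in either direction (0.102%). In the blocked fit the count was 232.

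The 4 genes are a small part of what the limits admit. Of all probe sets, 0.79% were below mock by over 1 log2 unit in WT, and 0.295% also had A384T within 1 of mock. Among probe sets of 1 gene symbol the counts were 298, and 110 from 95 genes. In the 110 the A384T mean was mostly below mock too, with a median of -0.74, and it was above mock at 7 probe sets, 2 of them P2ry14 and AA467197 and the other 5 from Itga4, Xdh and Gbp6. A384T exceeded WT by over 1 at 16 of the 110, and all 5 probe sets of the 4 genes were among these. This does not set the 4 genes apart, since the choice used these values. Itga4 (2.00 and 1.83), Xdh (1.74) and Gbp6 (1.57 and 1.63) were among the 16 too, above 4930486L24Rik (1.19). What singled out the 4 genes from the 95 is not stated in the limits. The R397W arrays played no part in the limits, although the mock mean did. R397W minus mock had a median of -0.06 over the 110, a range of -1.15 to 0.64, and 108 values within 1 of mock. Over all 45037 probe sets the median was 0.004 and 0 were called, so closeness of R397W to mock is not particular to the 110.

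Values at the edges show how the limits fell. Just inside the WT limit were Csrnp2 (-1.001), Gm34006 (-1.003) and Rflnb (-1.005), and just outside it Irgm1 (-0.998), Stk38 (-0.996) and Rab3d (-0.994), all WT minus mock. At the lower A384T limit, H2-T24 (-0.998), Dgkh (-0.991) and Pik3cg (-0.985) were inside and Daam1 (-1.001), Aldoa (-1.002) and Ccr2 (-1.005) outside, as A384T minus mock. At the upper limit the nearest were AA467197 (0.85), P2ry14 (0.42) and Gbp6 (0.41), and 0 probe sets with WT below mock by over 1 lay beyond it.

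**Figure D2:**
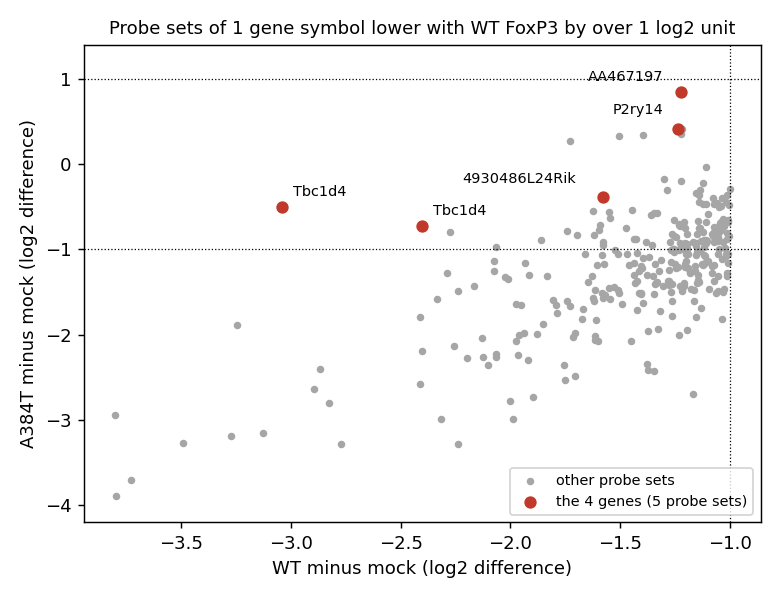
The 298 probe sets of 1 gene symbol with WT below mock by over 1, plotted as WT minus mock (horizontal) against A384T minus mock (vertical), both as log2 differences; dotted lines mark the limits of the choice. Most points lie low on the vertical axis, with 188 below the lower dotted line, and the 5 coloured probe sets lie within the limits, from -0.73 to 0.85.

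The comparison with R397W used arrays that took no part in the choice, although the mock, WT and A384T arrays on the other side did. None of the 5 probe sets was called in R397W over mock, where limma gave an adjusted p = 1 for each. This sets them apart from no others, since 0 of all 45037 probe sets were called there. The estimates were -0.034 ± 0.16 for P2ry14 (95% interval -0.40 to 0.33), -0.27 ± 0.20 for 4930486L24Rik (-0.71 to 0.17) and 0.41 ± 0.33 for AA467197 (-0.31 to 1.14). For Tbc1d4 the intervals ran from -0.49 to 1.25 at the first probe set and from -1.14 to 0.49 at the second. A p that misses the threshold does not show that R397W equals mock. The R397W and mock arrays did not overlap at 1 of the 5, the first of Tbc1d4, against 11.9% of all probe sets.

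R397W values were above WT at all 5 probe sets. Tbc1d4 was 10.7-fold higher in R397W at its first probe set (3.42 ± 0.39) and 4.22-fold higher at its second (2.08 ± 0.36). The difference was 1.64 ± 0.33 for AA467197, 1.31 ± 0.20 for 4930486L24Rik and 1.20 ± 0.16 for P2ry14. All 5 were called higher (limma, adjusted p between 0.00202 and 0.0356), against 0.759% of all probe sets called higher and 1.75% called in either direction, and the R397W and WT arrays did not overlap at 5 of 5, against 12.9% of all probe sets that did not overlap and were higher. Since the WT arrays were chosen to be low, these calls are no independent evidence. Without the arrays numbered 1, which leaves 1 R397W array, 0 of the 5 were called, and without R397W 2 there was 1. Without R397W 1 or WT 2 there were 3, and without WT 1, WT 3, mock 3 or A384T 1 there were 4.

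R397W and A384T were compared at the same 5 probe sets, and 0 were called, against 1.47% of all probe sets. P2ry14 was at -0.45 ± 0.16 in R397W over A384T (adjusted p = 0.318, 95% interval -0.81 to -0.09) and the first Tbc1d4 probe set at 0.88 ± 0.39 (adjusted p = 0.483, 95% interval 0.007 to 1.75). At these 2 the groups did not overlap, against 22.7% of all probe sets. AA467197 was at -0.43 ± 0.33, 4930486L24Rik at 0.12 ± 0.20 and the second Tbc1d4 probe set at 0.40 ± 0.36, each with overlapping arrays. In order of mean, Tbc1d4 and 4930486L24Rik had WT lowest, then A384T, then R397W and mock, with R397W above mock at the first Tbc1d4 probe set alone. P2ry14 and AA467197 had WT lowest and A384T highest, with R397W below mock for P2ry14 and above it for AA467197. Of neighbours in these orders, R397W was called different from neither mock nor A384T at any of the 5.

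**Figure D3:**
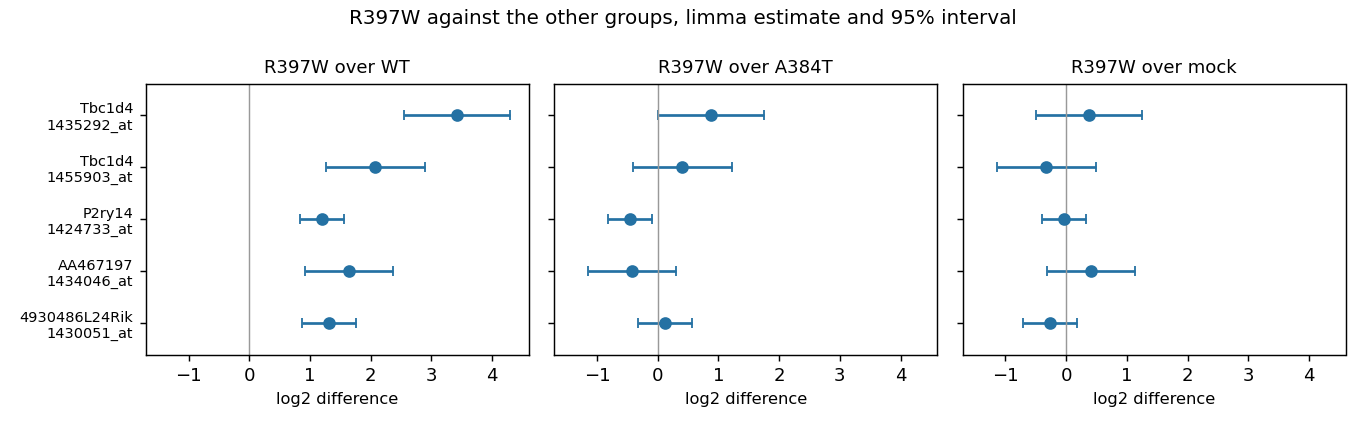
R397W minus WT, R397W minus A384T and R397W minus mock (log2 differences) at the 5 probe sets; points are limma estimates and bars their 95% intervals. In the left panel all intervals lie above 0, from 0.84 at the lowest, and in the right panel all 5 include 0.

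The 4 genes varied together, most closely in pairs. Across the 11 arrays, P2ry14 and AA467197 had a Pearson r of 0.941, and 4930486L24Rik went with the Tbc1d4 probe sets at 0.889 and 0.928. The lowest value between different genes was 0.583, for AA467197 with the second Tbc1d4 probe set. Other values across these pairs ran up to 0.813 for P2ry14 with 4930486L24Rik and 0.837 for P2ry14 with the first Tbc1d4 probe set. These correlations are a description over 11 arrays of 4 groups and share the WT difference that chose the genes.

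By the same measure, other genes had the most similar profiles. Those closest to the first Tbc1d4 probe set were Pde3b, a phosphodiesterase that breaks down cyclic AMP (r = 0.974), Ugcg, which makes glucosylceramide (0.965), Itgal, the LFA-1 integrin chain (0.945), Mapk14, the kinase p38 alpha (0.940), and Icam2, an adhesion molecule (0.938). Pde3b was at -1.62 in WT over mock, -0.55 in A384T and 0.17 in R397W. A high r does not mean a change of like size. In WT over mock, Ugcg was at -1.448, Itgal at -0.673, Mapk14 at -0.429 and Icam2 at -0.473. P2ry14 and AA467197 each had the other among their 5 closest genes, and they shared Gbp6, a guanylate-binding protein (0.946 and 0.937), and Evi2a (0.916 and 0.911). The remaining ones were Dhx8 (0.944) and Gpc6 (0.918) for P2ry14, and Igsf3 (0.937) and Slc25a53 (0.915) for AA467197. Their changes were small, with WT over mock at -0.196 for Dhx8, -0.171 for Gpc6, -0.46 for Igsf3 and -0.231 for Slc25a53. Gbp6 was at -1.22 in WT over mock, 0.41 in A384T and -0.07 in R397W, and Evi2a at -0.53, 0.51 and 0.18. Another Evi2a probe set was at -1.23 in WT, -0.97 in A384T and 0.09 in R397W, with A384T on the other side of mock.

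The genes nearest to 4930486L24Rik were Slfn8, a Schlafen family member (0.964), Padi2, a peptidylarginine deiminase (0.958), Arhgap18 (0.957), Flot2, a membrane scaffold protein (0.947), and Irf7, a transcription factor of the interferon response (0.941). Their WT differences from mock lay between -1.74 for Irf7 and -0.86 for Arhgap18, and their A384T differences between -0.78 and -0.07.

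The list for P2ry14 held the other P2Y receptors, related receptors and chromosome neighbours, with 12 of 13 genes measured by 15 probe sets. WT over mock had 0 called higher and 2 lower, where 2.66% of all probe sets were called, and A384T over mock had 1 higher and 3 lower, where 2.17% were. R397W over mock had 0 called, R397W over WT 1 higher (against 1.75% of all called), and R397W over A384T 2 higher and 1 lower (against 1.47%). The blocked fit called more over all 45037 probe sets too. It had 4 lower in WT over mock, where 3438 of all were called. It had 2 higher in R397W over WT, where 2603 were, and 4 higher and 1 lower in R397W over A384T, where 2568 were. Without the block, the median difference was -0.022 in WT and -0.069 in A384T, against -0.013 and -0.007 over all probe sets. Gpr171, a G protein-coupled receptor gene beside P2ry14 on chromosome 3, read -1.94, -1.97 and -1.36 in WT, -1.37, -0.93 and -1.15 in A384T, -0.14 and -0.006 in R397W, and 0, -0.31 and 0.023 in mock. Both groups were below all mock arrays, and Gpr171 fell with WT (-1.66 ± 0.18, adjusted p = 0.000921) and with A384T (-1.05 ± 0.18, adjusted p = 0.0142). The A384T call was lost without mock 1, mock 3 or A384T 1 and without the arrays numbered 1 (highest adjusted p = 0.203).

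P2ry1, an ADP receptor, fell with both forms; it is named here after its values were seen. It read -2.77, -2.48 and -1.54 in WT, -2.74, -2.73 and -0.96 in A384T, -0.25 and -0.21 in R397W, and 0, -0.16 and 0.15 in mock. The arrays numbered 3 were the highest of the WT and A384T groups, and no array of either overlapped mock. The differences were -2.26 ± 0.45 (adjusted p = 0.0269) in WT and -2.14 ± 0.45 (adjusted p = 0.0397) in A384T. The WT call was lost in 6 of 18 alternatives (without any 1 mock array, WT 1, WT 2 or the arrays numbered 1, highest adjusted p = 0.211). The A384T call was lost in 10, among them the fits without any 1 mock array, WT 2, A384T 1, A384T 2 or either R397W array (highest adjusted p = 0.296).

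Gpr183, an oxysterol receptor that guides lymphocytes, was lowest with A384T. The first of its 2 probe sets read -0.42, -0.38 and -0.23 in WT, -1.33, -1.62 and -1.11 in A384T, -0.12 and -0.03 in R397W, and 0, -0.07 and 0.30 in mock. A384T was the lowest group and did not overlap any other. It fell with A384T (-1.43 ± 0.15 over mock, adjusted p = 0.00067) and was higher in R397W than in A384T (1.28 ± 0.16, adjusted p = 0.00389, a call lost without R397W 2, without the arrays numbered 1 and with only these groups fitted, highest adjusted p = 0.148), while WT over mock was at -0.42 ± 0.15 (adjusted p = 0.239, and 0.0323 in the blocked fit). A384T over WT was called (-1.01 ± 0.15, adjusted p = 0.0418), and that call was lost in 12 of 17 alternatives, which included leaving out any 1 array but A384T 3 (highest adjusted p = 0.599). The other Gpr183 probe set was uncalled in A384T over mock (-2.11 ± 1.05, adjusted p = 0.503), with mock arrays from -1.28 to 1.39, and was called in the blocked fit (adjusted p = 0.000216). Gpr34, a lysophosphatidylserine receptor, rose with A384T over mock (1.54 ± 0.20, adjusted p = 0.00313), where WT was at 0.43 ± 0.20; with the arrays numbered 1 left out it was not called (adjusted p = 0.0734). P2ry13 (-0.09 in WT, -0.11 in A384T) and P2ry12 (0.07 and 0.021), ADP receptors of the same family, were close to mock, as were the 3 probe sets of Med12l, a near neighbour of P2ry14 (-0.07 to 0.08 in WT).

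The list for Tbc1d4, of other TBC-domain proteins, Rab proteins, AKT kinases and glucose transporters, had 31 of 33 genes measured by 78 probe sets, with 0 called in each of the 6 comparisons. In the blocked fit, WT over mock had 2 higher and 3 lower, and A384T over mock 1 higher and 1 lower. It also had 1 higher in A384T over WT, 1 higher and 2 lower in R397W over WT, 2 lower in R397W over A384T and 0 in R397W over mock. Tbc1d1, the closest relative of Tbc1d4, lay between -0.16 and 0.34 in WT over mock and between 0.09 and 0.32 in A384T over mock at its 4 probe sets. For AA467197, the list of cytochrome c oxidase subunits had 15 of 16 genes measured by 32 probe sets and 0 called in each of the 6 comparisons. In the blocked fit, 1 was higher in WT over mock and in A384T over mock, 1 higher and 1 lower in R397W over WT, and 1 lower in R397W over A384T. Ndufa4 was at 0.84 ± 0.81 in WT over mock (adjusted p = 0.841, and 0.00474 in the blocked fit), and its mock array numbered 1 was at -1.98 where the other mock arrays were at 0 and 0.20. Ndufa4l2 was at 0.009 in WT and -0.04 in A384T.

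Of the cathepsin L and CTLA-2 list, 21 of 22 genes were measured by 35 probe sets, with 1 called higher and 0 lower for WT against mock, and 2 higher and 0 lower for A384T against mock (3 and 1 in the blocked fit). Over all probe sets the shares called without the block were 2.66% and 2.17%, and the blocked fit called 3438 and 3303 of 45037. The WT count is near the background, and the A384T count is above it but rests on 2 probe sets. R397W over WT and R397W over A384T had 0 higher and 1 lower each (1 and 1, and 1 and 2, in the blocked fit). Ctsl, the lysosomal protease cathepsin L, rose with both at 1 of its 2 probe sets, which read 2.39, 2.74 and 2.14 in WT, 2.30, 2.68 and 2.16 in A384T, 0.89 and 0.25 in R397W, and 0.26, -0.39 and 0 in mock. The WT and A384T arrays overlapped each other and lay above all R397W and mock arrays. The differences from mock were 2.46 ± 0.23 in WT (adjusted p = 0.000431) and 2.42 ± 0.23 in A384T (adjusted p = 0.000502), and the other Ctsl probe set was at 0.13 and 0.16.

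Ctla2a, which in mouse encodes an inhibitor of cathepsin L-like proteases, had WT and A384T on opposite sides of mock. It read -0.25, -0.64 and -0.47 in WT, 1.44, 1.14 and 1.16 in A384T, 0.60 and 0.24 in R397W, and 0.50, 0 and -0.59 in mock. The A384T arrays stood above all others, whereas WT overlapped mock. Ctla2a rose with A384T over mock (1.28 ± 0.24, adjusted p = 0.0228) and was higher in A384T than in WT (1.70 ± 0.24, adjusted p = 0.037), while WT over mock was at -0.43 ± 0.24 (adjusted p = 0.605). These calls were lost in 5 and 11 of 18 alternatives, with a highest adjusted p of 0.0992 and 0.188. The A384T over mock call was lost without mock 2 or any 1 A384T array, and the A384T over WT call without mock 2 or any 1 WT, A384T or R397W array. Ctla2b was at -0.22 in WT and 0.16 in A384T.

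Genes beside the others on the chromosome were looked up in RefSeq after the values were known. Slc30a4, a zinc transporter gene that follows AA467197 on chromosome 2, read -1.63, -2.16 and -1.21 in WT, -0.74, -0.64 and -0.98 in A384T, 0.53 and -0.13 in R397W, and 0.26, -0.49 and 0 in mock. WT lay below all A384T arrays, which lay below all mock arrays. It fell with WT (-1.59 ± 0.27, adjusted p = 0.0112), and A384T was at -0.71 ± 0.27 (adjusted p = 0.304). These values meet both limits of the choice, so Slc30a4 is itself among the 110 probe sets that the limits admit. Leaving out the arrays numbered 1 ended the WT call (adjusted p = 0.119). The other near neighbours of AA467197, Spata5l1, Gatm and Bloc1s6, lay between -0.15 and 0.18 in WT over mock, and Prr30 and Commd6, beside Tbc1d4, were at 0.03 and -0.05. Klf12, the next gene on the side of Prr30, lay between -0.04 and 0.66 at its 5 probe sets, the highest at 0.66 ± 0.15 (adjusted p = 0.0524, and 0.0212 in the blocked fit).

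**Figure D4:**
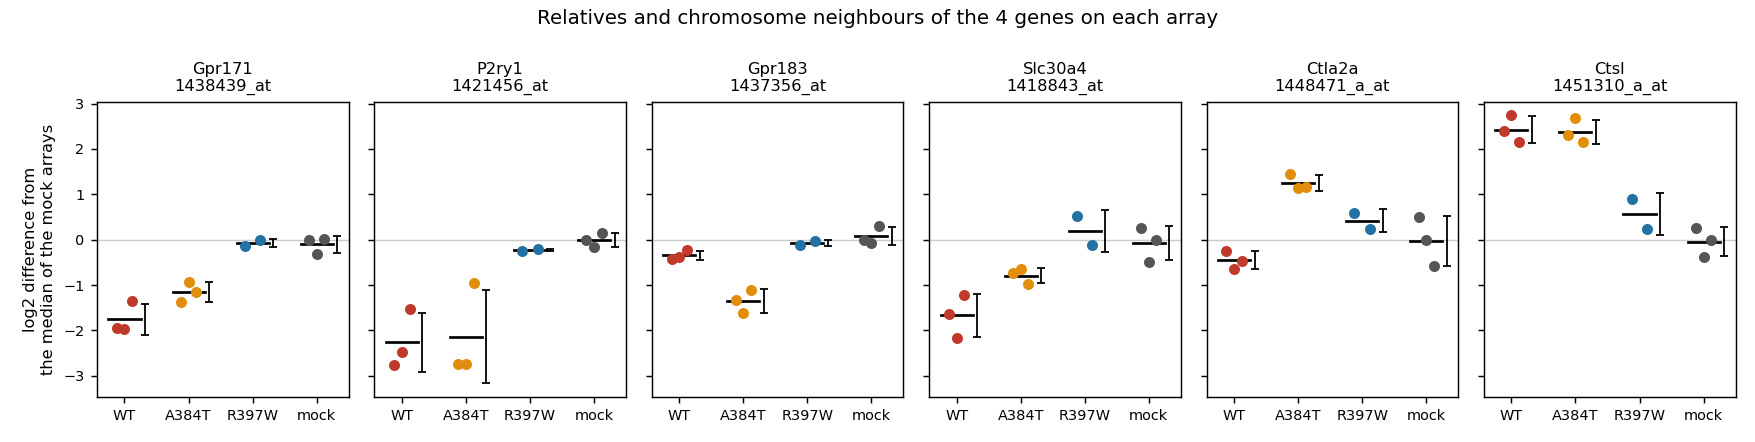
Values of 6 relatives or chromosome neighbours on each array, as log2 differences from the median of the mock arrays, with WT, A384T, R397W and mock from left to right; lines are group means and bars ± 1 SD (n = 3, 3, 2 and 3). Gpr171 and Slc30a4 are lowest in WT, Gpr183 is lowest in A384T, Ctla2a is highest in A384T, and Ctsl is near 2.4 in both WT and A384T.

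Because levels are lost, the labelled cell type could not be checked against its markers, and only their changes can be given. The T cell list (Cd3e, Cd4 and others, 16 probe sets) had array medians from -0.13 to 0.008 in WT, -0.15 to 0.26 in A384T, -0.12 to 0.10 in R397W and -0.022 to 0.034 in mock. Of its members, Cd2, an adhesion receptor, rose in WT (0.62 ± 0.10, adjusted p = 0.00834) and in A384T (0.61 ± 0.10, adjusted p = 0.0102). Cd5, an inhibitory receptor, fell in WT (-0.47 ± 0.10, adjusted p = 0.0416) and was at -0.46 ± 0.10 in A384T (adjusted p = 0.0521, and 0.0266 in the blocked fit). Cd28, a costimulatory receptor, fell in A384T at 1 probe set (-0.96 ± 0.16, adjusted p = 0.0111). Its other probe set was uncalled there (-0.475 ± 0.299, limma, adjusted p = 0.6525, and 0.036 in the blocked fit). In the blocked fit the list had 3 higher and 2 lower in WT over mock and 2 higher and 3 lower in A384T over mock. The macrophage and dendritic cell list (18 probe sets) had array medians from -0.06 to 0 in WT, -0.09 to -0.002 in A384T, 0 to 0.07 in R397W and 0 in mock, with 0 called in WT over mock and 1 lower in A384T over mock, Adgre1, a macrophage surface marker (-1.13 ± 0.19, adjusted p = 0.0131). For B cells, granulocytes and erythroid cells 0 markers were called in either, except that the blocked fit called Itga2b, a platelet integrin chain, lower in both (-0.51 in WT, adjusted p = 0.0261, and -0.57 in A384T, adjusted p = 0.0154). Of the CD8 and NK list, Klrd1, a receptor chain of NK and activated T cells, fell in both (-3.28 ± 0.29 in WT and -3.19 ± 0.29 in A384T, adjusted p = 0.000245 and 0.000345), and the array medians of its 13 probe sets lay from -0.037 to 0.053 in WT. Of the fibroblast and endothelial list, 1 of the 3 probe sets of Col1a2, a collagen chain, was called higher in WT (2.33 ± 0.51, adjusted p = 0.0416). It was at 1.51 ± 0.51 in A384T (adjusted p = 0.2304, and 0.0173 in the blocked fit). Pecam1, an endothelial adhesion molecule, was at 0.83 ± 0.37 in WT (adjusted p = 0.446, and 0.00138 in the blocked fit). The part of other cells in the values above was not tested.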

How the data were processed

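The deposited log2 values were made by the authors; per the submitters' processing notes the method was RMA (its version is not named), which gives 1 value per probe set. At all 45101 probe sets the median of the 3 mock arrays was 0, so the values had been centred on mock; neither that step nor the log base is stated in the labels, and base 2 was taken, as RMA gives. The 64 control probe sets were left out. Of the 45037 tested, 34945 had 1 symbol in the platform annotation, 932 several and 9160 none listed. All were fitted with limma 3.58.1 (R 4.3.3) as 1 mean per group over the 11 arrays, with eBayes and Benjamini-Hochberg adjustment over all 45037. Every probe set of a gene was kept, since picking the most variable one favours larger changes.

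Arrays with the same number, given in the titles, tended to deviate from their group means together: the correlation of deviations was 0.107 to 0.718 for the 15 same-numbered pairs of arrays. Pairs with different numbers ran from -0.695 to 0.344, so the 2 ranges overlapped. Pairs of arrays numbered 1 stood clear of these, at 0.575 to 0.718, whereas mock 2 with A384T 2 was at 0.107. Deviations from a group mean cancel out within the group, which pushes pairs with different numbers towards negative values. The 2 R397W arrays mirror each other, so mock 1 was at 0.695 with R397W 1 and at -0.695 with R397W 2. The range of differently numbered pairs is therefore no independent comparison. The numbers were read as a possible pairing for the blocked fit, the source being the data and not the labels. For numbers 2 and 3 the pairing is less clear. The fit with this block is given beside printed values whose call it changed and printed counts it moved by over 1.5 times. The results reported use the plain eBayes prior; a trend of the prior needs levels, which are lost, so the alternative prior was robust without a trend. The fit was tested on simulated data with independent noise on each array. That test therefore left out the shared deviations of same-numbered arrays.

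The 4 genes and the gene lists were chosen with earlier results of these data known. The genes named were the 4 genes, the 3 genes on each side of each limit, the 5 genes most correlated with each, up to 4 genes per list called in an R397W comparison, and the closest relatives; chromosome neighbours such as Slc30a4, called marker genes and P2ry1 were added after their values were seen. The tables used pandas 2.3.3 in Python 3.11.15, and the plots matplotlib 3.10.9. Alternatives were the block, a fit of 2 groups, 1 probe set per gene, array medians set to 0, the robust prior, leaving out the flatter probe sets, and leaving out arrays. The alternatives for list and neighbour genes were chosen after seeing the data.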

Additional observations from a re-analysis of the deposited data

How the results depend on the processing

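Under 18 alternatives, 11 of them leaving out 1 array, the 5 probe sets kept their sign from mock in WT and A384T (17 alternatives for the second Tbc1d4 probe set, which the fit with 1 probe set per gene does not hold). The choice used these same values, so the WT sign was close to fixed in advance, and the ranges below describe only the size. In WT over mock, P2ry14 lay between -1.35 and -1.05, 4930486L24Rik between -1.79 and -1.41, AA467197 between -1.40 and -0.90, and Tbc1d4 between -3.48 and -2.70 and between -2.70 and -2.16. AA467197 in A384T over mock ran up to 1.05, past the limit of the choice, and the second Tbc1d4 probe set down to -1.08, past the lower limit. In R397W over mock 0 of the 5 were called in any alternative, and P2ry14 changed sign in 2 of them. With the array number as a block (replicate block) no call of the 5 in an R397W comparison changed.

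R397W over WT was called less often. With the 2 groups alone in the fit, P2ry14 (1.20, adjusted p = 0.0953) and AA467197 (1.64, adjusted p = 0.15) lost the call. Without 1 array, or without the arrays numbered 1, the differences ran from 1.02 to 1.401 for P2ry14 (highest adjusted p = 0.0772), 1.16 to 1.46 for 4930486L24Rik (0.146), 1.32 to 1.82 for AA467197 (0.262), 3.02 to 3.86 for the first Tbc1d4 probe set (0.0773) and 1.91 to 2.25 for the second (0.161). The single-array losses came without mock 3, WT 1, WT 2, WT 3, A384T 1, R397W 1 or R397W 2. These fits held fewer arrays, and the cause of the losses was not tested.

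Counts over all probe sets also moved. The block gave 3438 for WT over mock (1198 without it), 3303 for A384T over mock (976), 232 for A384T over WT (46), 2603 for R397W over WT (788) and 2568 for R397W over A384T (661). With 2 groups in the fit, A384T over mock had 554, A384T over WT 2, R397W over WT 329 and R397W over A384T 118. With 1 probe set per gene, which tests fewer features, WT over mock had 659, A384T over mock 577, R397W over WT 459 and R397W over A384T 413. Leaving out arrays gave WT over mock 535 to 1218, A384T over mock 367 to 927, A384T over WT 2 to 29, R397W over WT 181 to 795 and R397W over A384T 97 to 629, the lowest each time without the arrays numbered 1. R397W over mock had 0 throughout.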
